A study of Arabidopsis thaliana with 24 samples.

Results

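The response of the hira mutant of Arabidopsis thaliana to 1 hr of shade was described from 6 of the 24 RNA sequencing libraries of a study of shade and histone chaperones: 3 libraries of shaded hira seedlings were set against 3 libraries of hira seedlings kept in white light, over all 33020 loci of the deposited table. The study measured total RNA of whole seedlings, 6 days old, of 4 genotypes: the Col-0 wild type (WT), pif7, asf1ab and hira. Each genotype was sampled in white light and after 1 hr of shade at a red to far-red ratio of 0.4, which gave 8 groups of 3 libraries. The labels name no allele of HIRA, no line or clone and no transgene, and they do not say that the libraries of a group came from separate cultures. WT and asf1ab are used below only to show where hira differed. Values are the authors' FPKM (read density scaled for transcript length and library size). Tests were run with limma on log2(FPKM + 1) over the 19126 genes with a mean of at least 1 FPKM. A gene "rose" or "fell" where its Benjamini-Hochberg adjusted p was below 0.05, and a change is a log2 difference on that scale with its standard error, which understates the change of weakly expressed genes.

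Plants read neighbours from the loss of red relative to far-red light. Low red to far-red light converts the photoreceptor phytochrome B to its inactive form, which releases PHYTOCHROME INTERACTING FACTORS such as PIF7 to activate genes of auxin synthesis, cell wall loosening and elongation growth, together with genes that restrain the same response. HIRA is a histone chaperone that, with its partners UBN1, UBN2 and CABIN1, places the H3.3 variant of histone H3 into chromatin outside DNA replication, and ASF1 hands H3-H4 dimers to it.

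The transcript of HIRA (AT3G44530) read 3.68, 3.68 and 4.38 FPKM in white light and 4.81, 4.76 and 4.13 FPKM in shade in the hira libraries, and 4.6, 5.04 and 4.99 FPKM in white light and 4.59, 5.2 and 4.72 FPKM in shade in WT. The difference of hira from WT was -0.26 ± 0.09 in white light (limma adjusted p = 0.0664) and -0.07 ± 0.09 in shade (adjusted p = 0.666), and the shade change of HIRA in hira did not pass (log2 change 0.18 ± 0.09, adjusted p = 0.13). FPKM over a whole locus also counts transcript outside any insertion, so these values check the genotype label weakly.

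White-light hira 1 and 2 stood apart from the others. Ribosomal RNA took 8.32, 7.27 and 3.22% of the summed FPKM in white-light hira 1, 2 and 3, against 2.46 ± 0.318% in shaded hira (SD, n = 3) and 2.11 ± 0.608% in white-light WT. Plastid-encoded transcripts took 2.5, 2.99 and 1.42% there, against 1.15 ± 0.189% in shaded hira and 0.873 ± 0.0282% in white-light WT. A high plastid share was also found in white-light asf1ab 1 (2.31%, against 1.12 and 0.988% in its companions), whose ribosomal RNA share was 1.86%. White-light hira 3 was nearer to the rest in both shares but differed from its 2 companions in single genes: HSP90.1, a heat-induced chaperone, read 10.7, 9.61 and 62.2 FPKM in white-light hira 1, 2 and 3, and the uncharacterised gene AT4G08555 read 12, 6.34 and 243 FPKM. Main counts and the differences from WT are therefore also given without white-light hira 1 and 2. That fit leaves white-light hira 3 as the only library of its group, so its standard errors are larger. A call lost there need not mean a smaller change, and the size of the change is to be read first. Summed FPKM ran from 778266 to 893997 over the 24 libraries and 18427 to 19298 genes reached 1 FPKM. Depth, read roughly from the steps between low FPKM values, was 15650000 to 17150000 reads in the hira libraries. None of the listed root, shoot meristem or stomatal markers was at 0 in all 6 hira libraries, and the embryo regulator LEC1 of the seed list was listed at 0 in all of them.

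Shade raised 4980 genes in hira (26% of the genes tested) and lowered 1827 (9.55%). Among them, 602 rose and 413 fell by at least 1 log2 unit. The shares of 26% and 9.55% are the background for every list count in hira below. The median change over all 19126 genes was 0.14, so the balance of higher and lower calls depended on scaling: rescaling each library by the median of ratios brought the median to 0 and gave 2747 rises (14.4%) and 2791 falls (14.6%). The 2747 rises were all among the 4980, and the 1827 falls were all kept, so the share of calls that were rises moved from 73.2% to 49.6%. With white-light hira 1 and 2 both left out, 2495 genes rose (13%) and 1547 fell (8.09%). For comparison, shade raised 2854 genes (14.9%) and lowered 2189 (11.4%) in WT. Of the genes that rose in hira 2252 also rose in WT, which is 45.2% of the hira rises and 78.9% of the WT rises, and of those that fell 1116 also fell in WT, 61.1% of the hira falls and 51% of the WT falls. Only 12 genes rose in hira and fell in WT, and 31 fell in hira and rose in WT. Within hira, genes rose most often in the fourth of 5 equal groups ordered by mean FPKM (37% of 3825 genes) and least often in the lowest (9.46% of 3826). In whole seedlings, fewer cells of a type and less RNA per cell cannot be told apart for any of these genes.

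The transcription factors that mark the shade response rose in hira without exception. All 9 listed genes rose, with a median change of 2.92 (2.77 after rescaling), all 9 rose in WT with a median of 2.96, and none of the 9 had a called difference in shade change between hira and WT. ATHB2 (AT4G16780), a homeodomain-leucine zipper factor that promotes elongation, read 6.03, 5.25 and 5.31 FPKM in white light and 149, 159.9 and 154 FPKM in shade. Every shaded library lay far above every white-light library, and the change was 4.57 ± 0.14 (limma adjusted p = 1.99e-14), against 4.9 ± 0.14 in WT. PIL1, a helix-loop-helix protein and an early shade marker, read 0.14, 0.53 and 0.23 FPKM in white light and 32.2, 26.5 and 27.3 FPKM in shade. It was barely above 0 in white light in each library and changed by 4.52 ± 0.11 (adjusted p = 8.24e-16).

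**Figure D1:**
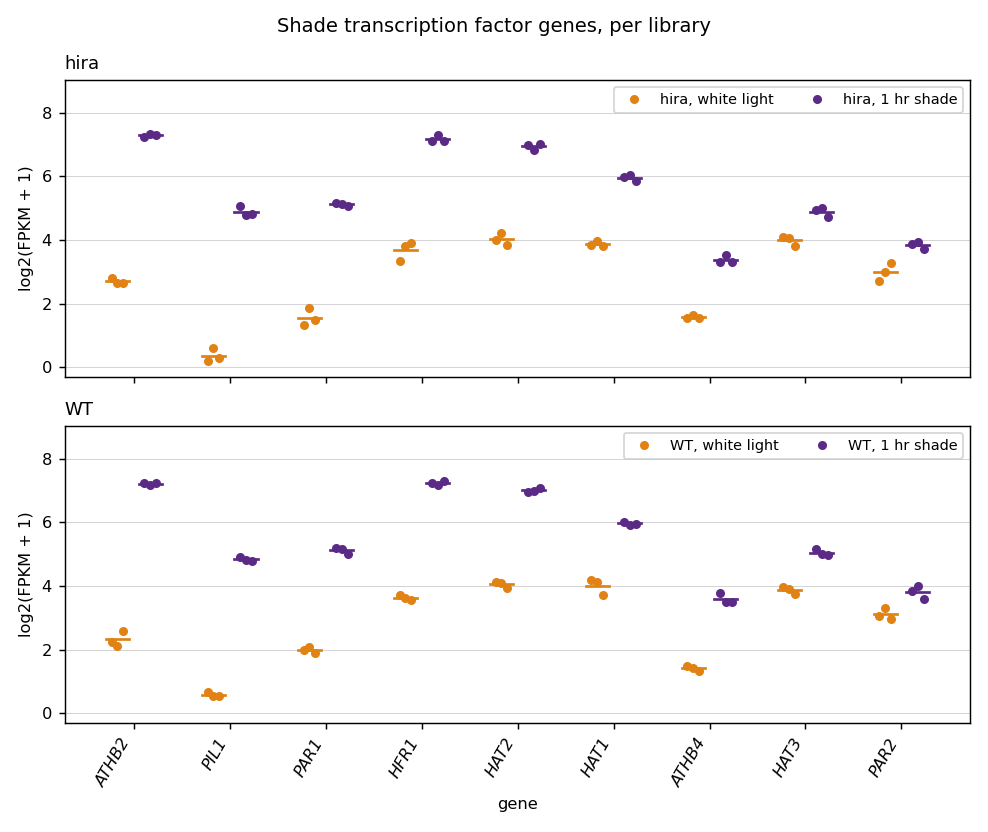
log2(FPKM + 1) on the vertical axis for the 9 shade transcription factor genes on the horizontal axis, in hira (upper panel) and WT (lower panel). Each point is a library, with 3 in white light (orange) and 3 after 1 hr of shade (purple), and lines are means. In hira the shaded libraries of all 9 genes lie above the white-light libraries, and the hira and WT points of each gene lie at similar levels.

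The helix-loop-helix proteins that restrain PIFs rose as well. HFR1, which binds PIFs and keeps them off DNA, read 9.15, 12.9 and 14 FPKM in white light and 138, 156 and 136 FPKM in shade and changed by 3.49 ± 0.13. PAR1 changed by 3.57 ± 0.12 from 1.48, 2.66 and 1.78 FPKM to 35, 34.1 and 32.4 FPKM. Its relative PAR2 changed less, by 0.85 ± 0.15 (adjusted p = 0.0002). Among the relatives of ATHB2, HAT2 changed by 2.92 ± 0.11, HAT1 by 2.08 ± 0.11, ATHB4 by 1.8 ± 0.12 and HAT3 by 0.89 ± 0.1. The differences between hira and WT in the shade change of the 9 genes ran from -0.38 ± 0.17 in ATHB4 to 0.44 ± 0.17 in PAR1, with adjusted p of 0.242 and 0.178.

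Of the 14 photoreceptors and PIFs, 5 rose and 1 fell in hira, with a median of 0.05, against 26% and 9.55% of all genes tested. Among the phytochrome genes, though not all of them rose, PHYB and PHYA did. PHYB read 17.1, 18.7 and 23.2 FPKM in white light and 55.8, 54.5 and 58.7 FPKM in shade (change 1.48 ± 0.1), and PHYA changed by 1.29 ± 0.11. PIF6 changed by 1.49 ± 0.23, from levels under 1 FPKM in white light. The blue-light receptor gene CRY2 changed by 0.51 ± 0.09. PIF7 (AT5G61270), the PIF best known for the early shade response, was the member that fell: it read 26.5, 33.6 and 29.3 FPKM in white light and 8.8, 10.6 and 9.7 FPKM in shade. All shaded values were below all white-light values, and the change of -1.52 ± 0.14 (adjusted p = 9.67e-08) was not shown to differ from the -1.09 ± 0.14 of WT (difference -0.43 ± 0.2, adjusted p = 0.252). PIF4 did not rise in hira (35, 45.1 and 29.2 FPKM in white light, 27.7, 31.9 and 28 FPKM in shade, change -0.29 ± 0.16) and rose in WT (change 0.63 ± 0.16). The difference of -0.92 ± 0.22 passed narrowly (adjusted p = 0.0459) and was lost in 10 of the 12 fits that left out 1 library of either genotype. Among 16 tested genes of the COP1/SPA, HY5 and B-box group, which carry or counter the light signal in the nucleus, 4 rose and 10 fell (median -0.54, against 3 that rose and 10 that fell in WT). FHL, which carries phytochrome A into the nucleus, changed by 1.9 ± 0.23. The fallers included HYH, the close relative of HY5, which read 95.6, 119.8 and 117 FPKM in white light and 59, 58.2 and 54.3 FPKM in shade (change -0.94 ± 0.12), BBX18 (change -1.44 ± 0.14) and BBX19 (change -0.88 ± 0.15).

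Auxin genes moved in hira at every step from synthesis to inactivation. Of 7 tested synthesis genes 4 rose and 2 fell, and 6 of the 13 listed were too low to test. YUC8 and YUC9, flavin monooxygenases that make auxin from indole-3-pyruvate, were near 0 in white light and clearly expressed in shade: YUC8 read 0.65, 1.27 and 0.82 FPKM in white light and 27.5, 32.1 and 27.1 FPKM in shade (change 3.98 ± 0.17), and YUC9 read 0.37, 0.18 and 0.12 FPKM in white light and 18.4, 16.3 and 20.7 FPKM in shade (change 3.99 ± 0.13). YUC2 changed by 1.53 ± 0.12 and YUC5 by 1.21 ± 0.18. TAA1, the aminotransferase of the preceding step, fell by 1.5 ± 0.17. Its white-light values of 9.59, 7.26 and 8.29 FPKM all lay above the 2.71, 1.88 and 2.33 FPKM of shade. Of 11 transport genes 7 rose and 1 fell (median 0.64). The efflux carrier PIN3, which redirects auxin to the outer hypocotyl in shade, read 43.5, 50.3 and 46.7 FPKM in white light and 151, 168 and 165 FPKM in shade and changed by 1.77 ± 0.11, close to WT (difference -0.00 ± 0.15). The influx carrier AUX1 changed by 1.22 ± 0.13.

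Most of the tested genes induced by auxin rose. Of 25 tested Aux/IAA repressors 18 rose and 1 fell (median 0.82), of 15 tested SAUR genes, small proteins that drive acid growth, 13 rose and none fell (median 2.77), and all 6 tested GH3 enzymes, which conjugate auxin to amino acids, rose (median 1.65). The medians in WT were 0.86, 2.67 and 2.14. The SAUR list held only the 16 loci whose annotated symbol was SAUR followed by a number. Genes of that family under other names were not counted. IAA29 had the second largest rise of all named genes in hira. It read 1.6, 3.53 and 0.97 FPKM in white light and 102, 96.1 and 108 FPKM in shade (change 5.18 ± 0.21, adjusted p = 7.25e-13), and its shaded WT libraries were higher still, at 147, 154 and 184 FPKM. IAA19 changed by 4.65 ± 0.27, IAA6 by 3.84 ± 0.15 and IAA1 by 2.68 ± 0.13. IAA2, the most abundant of these, went from 92.2, 98 and 89.4 FPKM to 545, 564 and 571 FPKM. SAUR22 read 2.28, 2.49 and 1.69 FPKM in white light and 53.2, 54.3 and 51.7 FPKM in shade (change 4.11 ± 0.13). SAUR19, SAUR23 and SAUR28 changed by 3.97 ± 0.3, 3.2 ± 0.15 and 3.91 ± 0.23. SAUR19 to SAUR24 are near-identical neighbours, and the sources used here do not say how reads were shared between them.

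A few auxin-induced genes rose less in hira than in WT. GH3.5 read 18.1, 17.5 and 16.5 FPKM in white light and 64, 77.3 and 80.3 FPKM in shade in hira and 12.7, 13 and 16.4 FPKM in white light and 126, 105 and 142 FPKM in shade in WT. The white-light hira libraries lay slightly above those of WT and the shaded hira libraries well below those of WT, and the change was 2.02 ± 0.16 against 3.06 ± 0.16 (difference -1.03 ± 0.23, limma adjusted p = 0.033). IAA30 showed a difference of -1.33 ± 0.31 (adjusted p = 0.0412), with 5.25, 6.49 and 2.96 FPKM in shaded hira and 14.6, 10.8 and 12.5 FPKM in shaded WT. These 2 differences were lost in 9 and 10 of the 12 fits without 1 library and in the fit without white-light hira 1 and 2. The other Aux/IAA, SAUR and GH3 genes had no called difference from WT in their shade change in the main fit. After rescaling, 2 Aux/IAA genes had a lower shade change than in WT. Within shade, 3 of the 6 GH3, 2 of the 25 Aux/IAA and 1 of the 15 SAUR genes were lower in hira than in WT. None was higher (6.59% of all genes lower, 4.96% higher).

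Of 13 brassinosteroid genes 10 rose and 1 fell, against 26% and 9.55% of all genes tested, and 6 rose after rescaling. BRI1, the receptor, read 31.9, 40.8 and 30.4 FPKM in white light and 87.5, 102 and 97.3 FPKM in shade (change 1.46 ± 0.11), and CPD, an enzyme of synthesis, changed by 1.09 ± 0.1. BAS1, which inactivates the hormone, changed by 2.33 ± 0.13. All 7 tested growth bHLH genes rose, with a median of 1.34. BEE1 led them with 3.04, 3.38 and 3.08 FPKM in white light and 46.7, 42.2 and 42.8 FPKM in shade. Its change of 3.43 ± 0.1 exceeded the 2.82 ± 0.1 of WT by 0.61 ± 0.14 (adjusted p = 0.0415), a call lost in 11 of the 12 fits without 1 library. PRE1, PRE2 and PRE6, small growth-promoting bHLH proteins, changed by 1.34 ± 0.17, 1.38 ± 0.18 and 1.62 ± 0.12, and IBH1, which opposes them, by 1.32 ± 0.15.

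Gibberellin genes rose about as often as all genes tested (26%): 5 of 14 rose, and after rescaling 5 rose and 2 fell. The 5 included the synthesis enzymes GA20OX1 (change 1.47 ± 0.18) and GA20OX2 (change 1.65 ± 0.18) and the DELLA repressor GAI, which read 21.7, 22.3 and 11.8 FPKM in white light and 48.9, 50.4 and 52.7 FPKM in shade (change 1.45 ± 0.17). Of 7 tested ethylene synthesis genes 4 rose and 1 fell. ACS8, a synthase of the ethylene precursor, read 0.37, 0.41 and 0.58 FPKM in white light and 21.6, 20.9 and 26.5 FPKM in shade (change 4.04 ± 0.17), and ACS4 changed by 1.99 ± 0.13. ACS6, a synthase known from stress responses, was the one that fell, from 25.1, 26.5 and 46 FPKM to 7.91, 8.87 and 9.63 FPKM (change -1.72 ± 0.27). ACS11 rose by 2.08 ± 0.15, less than in WT (difference -0.88 ± 0.21, adjusted p = 0.0415, lost in 9 of the 12 fits without 1 library). Of 11 cytokinin genes 2 rose and 3 fell, against 26% and 9.55% of all genes tested. After rescaling 2 rose and 3 fell as well, against 14.4% and 14.6% of all genes. CKX5 and CKX6, oxidases that degrade cytokinin, changed by 2.83 ± 0.18 and 1.89 ± 0.16. ARR4, a type-A response regulator, differed between the genotypes: it read 47, 38.3 and 47.9 FPKM in white light and 59.4, 55 and 52 FPKM in shade in hira and 63.1, 62.3 and 51.4 FPKM in white light and 36.2, 34.7 and 30.8 FPKM in shade in WT. It fell in WT (-0.78 ± 0.13) and did not pass in hira (0.32 ± 0.13, adjusted p = 0.0604), and the difference of 1.1 ± 0.18 (adjusted p = 0.00399) was kept in all 12 fits without 1 library and lost without white-light hira 1 and 2 (0.98, adjusted p = 0.0707).

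Cell wall genes moved in both directions. Of 20 tested XTH genes, which cut and rejoin xyloglucan chains, 12 rose and 3 fell (median 0.91, 0.76 after rescaling). XTH15 read 4.25, 1.97 and 1.88 FPKM in white light and 76.7, 98.2 and 73.5 FPKM in shade (change 4.55 ± 0.22, adjusted p = 7.92e-12). XTH33 and XTH16 changed by 3.11 ± 0.15 and 1.94 ± 0.19. XTH31, in contrast, read 61.4, 44.4 and 68.6 FPKM in white light and 8.62, 5.38 and 6.53 FPKM in shade (change -2.91 ± 0.23), and its close relative XTH32 changed by -1.86 ± 0.12. For both, no shaded library reached a white-light one. Of 13 tested alpha-expansins, wall-loosening proteins, 2 rose and 5 fell, against 26% and 9.55% of all genes tested. The fallers included EXPA10 (change -0.8 ± 0.18) and EXPA5 (change -0.71 ± 0.19). With white-light hira 1 and 2 left out, 1 expansin rose and 1 fell.

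Several of the strongest risers lay outside the lists. FLP1, an FPF1-like protein, had the largest rise of the named genes, with 2.18, 2.4 and 1.46 FPKM in white light and 111, 125 and 112 FPKM in shade (change 5.29 ± 0.28, adjusted p = 4.38e-11). RTFL18, which encodes a small peptide of the DEVIL family, read 0.63, 1.19 and 0 FPKM in white light and 24.5, 26.2 and 28.6 FPKM in shade (change 4.16 ± 0.26). AT3G21330 changed by 4.53 ± 0.15 and AT4G38825, annotated as SAUR13, by 4.03 ± 0.37. The non-coding AT1G09557 was listed at 0 in all 3 white-light hira libraries and read 23.7, 24.6 and 29.6 FPKM in shade. In WT it was uneven, with 1.09, 0 and 10.9 FPKM in white light and 21.6, 0 and 31.4 FPKM in shade. ST2A, a sulfotransferase that inactivates hydroxyjasmonate and a member of the jasmonate list, rose from 0.21, 0.14 and 2.15 FPKM to 24.4, 32.3 and 27.5 FPKM. Its change of 4.15 ± 0.42 was close to the 4.35 ± 0.42 of WT, although the shaded WT libraries reached 142, 79.6 and 131 FPKM.

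Sulfur assimilation was the metabolic group that fell most clearly. Of 12 tested genes 8 fell and none rose in hira (median -1.15), and 11 fell in WT (median -1.48). No member had a called difference between the genotypes in its shade change. The reductases of activated sulfate fell together: APR3 read 111, 92 and 308 FPKM in white light and 17.1, 16.1 and 20.3 FPKM in shade (change -2.97 ± 0.3), APR1 changed by -2.72 ± 0.16 and APR2 by -1.79 ± 0.14. In APR3, white-light hira 1 and 2 were well below hira 3 and below all 3 white-light WT libraries, which read 260.2, 241 and 292 FPKM. LSU2 and SDI2, induced by sulfur starvation, changed by -2.33 ± 0.27 and -1.84 ± 0.2. IPMI1, an isopropylmalate isomerase subunit, read 61.6, 42.7 and 45.2 FPKM in white light and 7.44, 6.08 and 4.82 FPKM in shade in hira and 43.8, 53.6 and 58.9 FPKM in white light and 22.3, 21.4 and 26.1 FPKM in shade in WT. Its fall of -2.84 ± 0.25 was larger than in WT (difference -1.71 ± 0.36, adjusted p = 0.0234, lost in 6 of the 12 fits without 1 library). BBX30, a B-box microprotein, changed by -2.8 ± 0.3 in hira and -0.99 ± 0.3 in WT, a difference of -1.81 ± 0.42 (adjusted p = 0.0379) lost in 9 of the 12.

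Further large falls were found in genes of little known function. AT5G49480, annotated as a calcium-binding protein, read 159, 142 and 537 FPKM in white light and 27.6, 36.8 and 33.1 FPKM in shade (change -2.8 ± 0.38), with white-light hira 3 far above the other 2. AT4G08555 had the same shape, 12, 6.34 and 243 FPKM in white light and 0.69, 3.91 and 3.9 FPKM in shade. The fall of AT4G08555 was -3.05 ± 0.99 (adjusted p = 0.0219) and was lost without white-light hira 3 (change -1.51, adjusted p = 0.147) and without shaded hira 1 (change -2.54, adjusted p = 0.0959). AT2G22880 was listed at 0 in all 3 shaded hira libraries and read 10.8, 17.1 and 10.1 FPKM in white light. AT5G19595 was also listed at 0 in shade (7.17, 6.69 and 4.27 FPKM in white light), as were the antisense RNA AT5G04175 (9.11, 6.95 and 32.8 FPKM) and the small nuclear RNA U1.2 (4.92, 12 and 11.8 FPKM). The U1.2 call was lost in 5 of the 6 fits without 1 hira library and the gene was also listed at 0 in shaded WT, and the AT5G04175 call was lost in 1 of the 6. Counting by strand is not stated, so reads of an antisense gene and of its partner cannot be told apart.

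Rapid stress and touch genes, which answer handling, cold, wounding or elicitors within minutes, fell in hira, and none was called as a fall in WT. Of 19 listed genes 17 were tested, since CBF1 and CBF3 were too low. In hira 14 fell and 1 rose (median -1.59, -1.73 after rescaling), against a median of 0.14 over all genes tested. In WT 4 rose and none fell (median 0.07), and in asf1ab, where 18.8% of genes rose and 12.3% fell, 2 rose and 4 fell (median -0.44). For all 14 fallers the 3 shaded hira libraries lay below the 3 white-light ones. The shade change was lower in hira than in WT for 9 of the 17 (background 0.685% of genes lower and 0.607% higher), with none higher. No member had a called difference between hira and asf1ab (background 0.0261% lower and 0.0418% higher). The gene lists were chosen with earlier results of these data known, so these counts describe the list and are no independent support.

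More of these genes were higher in white-light hira than were lower in shaded hira, each against WT. Of the 17 genes 9 were higher in white-light hira than in white-light WT (2.61% of all genes) and none was lower (9.03%), while in shade 3 were lower (6.59%) and none higher (4.96%). ERF6, an ethylene response factor, read 38.5, 43.2 and 38.8 FPKM in white light and 6.56, 7.36 and 6.47 FPKM in shade in hira and 9.44, 7.97 and 26.3 FPKM in white light and 17.1, 9.7 and 14.3 FPKM in shade in WT. White-light hira was above every WT library, and shaded hira was below all of them. Its change in hira was -2.4 ± 0.3 (adjusted p = 4.28e-06) and the difference from WT -2.47 ± 0.42 (adjusted p = 0.00555). ERF5, its close relative, read 33.1, 30.6 and 21.9 FPKM in white light and 4.09, 3.73 and 5.19 FPKM in shade in hira and 3.35, 4.65 and 7.65 FPKM in white light and 7.02, 4.71 and 5.22 FPKM in shade in WT, a difference in change of -2.6 ± 0.38 (adjusted p = 0.00152). CBF2, a regulator of cold acclimation, fell in hira by 1.16 ± 0.21 (5.97, 12.1 and 8.55 FPKM in white light and 3.51, 2.65 and 3.71 FPKM in shade) and rose in WT by 1.66 ± 0.21 (difference -2.82 ± 0.3, adjusted p = 6.04e-05). CBF2 has near-identical neighbours in CBF1 and CBF3. These 3 differences were kept in all 12 fits that left out 1 library. With white-light hira 1 and 2 left out, ERF5 (-2.25, adjusted p = 0.0489) and CBF2 (-2.82, adjusted p = 0.000556) still passed and ERF6 did not (-2.42, adjusted p = 0.0748).

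**Figure D2:**
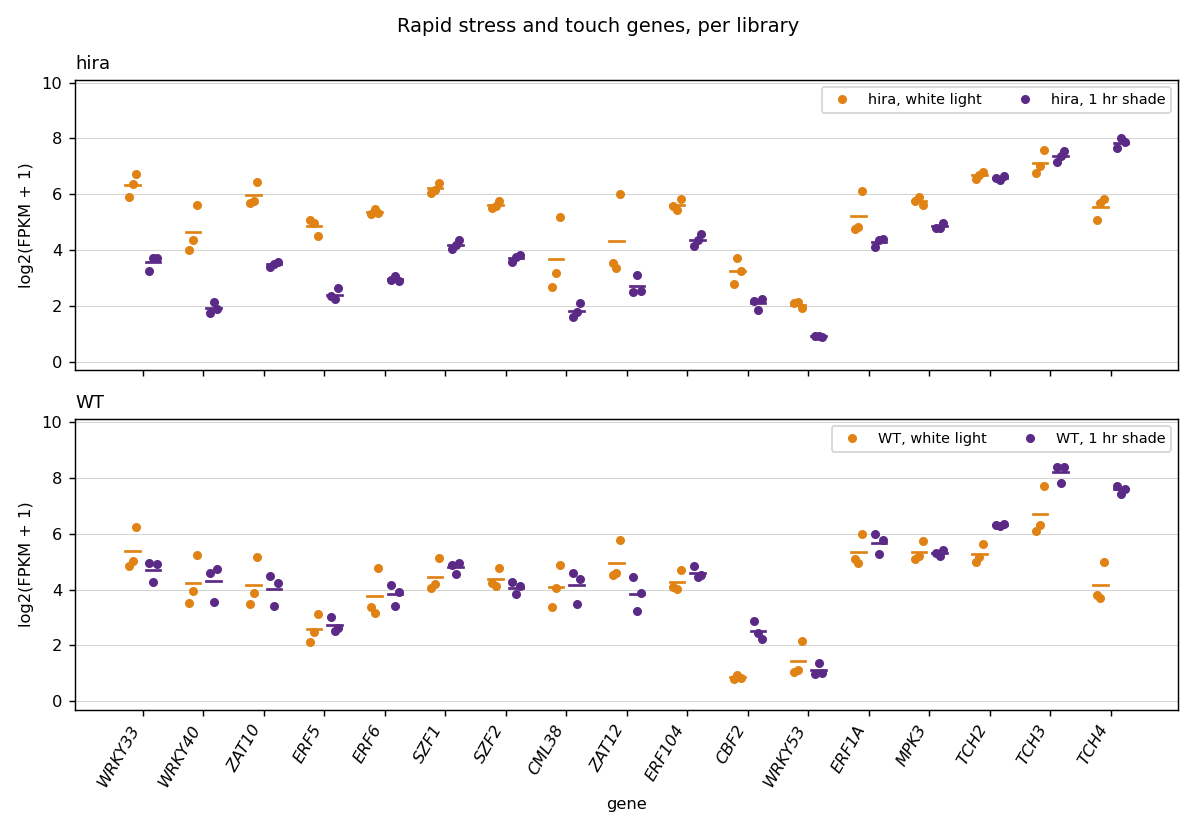
log2(FPKM + 1) on the vertical axis for the 17 tested rapid stress and touch genes on the horizontal axis, in hira (upper panel) and WT (lower panel), with a point for each library in white light (orange) and shade (purple) and lines at the means. In hira, 14 of the 17 genes have all shaded libraries below all white-light libraries, while the WT points of the 2 lights overlap for most genes.

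WRKY33 and WRKY40, factors of the defence response, had falls of -2.77 ± 0.41 and -2.74 ± 0.53 in hira. WRKY33 read 59.3, 82.3 and 104 FPKM in white light and 8.52, 12.1 and 12.3 FPKM in shade in hira and 27.8, 31.6 and 74.8 FPKM in white light and 30.1, 18.1 and 29.2 FPKM in shade in WT. White-light WT 3 was above its companions, and the difference from WT did not pass (-2.11 ± 0.58, adjusted p = 0.0755). ZAT10, a zinc finger repressor, read 50.6, 53.4 and 86.6 FPKM in white light and 9.62, 10.4 and 10.9 FPKM in shade in hira. Its difference of -2.33 ± 0.52 passed (adjusted p = 0.0317) but was lost in 8 of the 12 fits without 1 library. The single riser of the list was TCH4, an XTH wall enzyme, at 2.31 ± 0.24, and the calmodulin-like TCH2 did not change in hira (-0.09 ± 0.13). TCH4 and TCH2 are named after their values were seen, to account for the counts. With white-light hira 1 and 2 left out 13 of the 17 still fell and 1 rose. The number lower than in WT was then 7.

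Outside that list, 5 further named genes with a lower shade change in hira than in WT follow. AT5G51190, annotated as ERF105, read 35.5, 31.1 and 35 FPKM in white light and 3.06, 6.14 and 5.83 FPKM in shade in hira and 0, 1.25 and 5.66 FPKM in white light and 12.6, 6.64 and 12.2 FPKM in shade in WT. It was high in white-light hira only, fell there by 2.58 ± 0.46 and rose in WT by 2.17 ± 0.46, a difference of -4.75 ± 0.65 (limma adjusted p = 0.000822). CAF1a, a deadenylase that shortens mRNA tails, read 59.5, 71.5 and 70.1 FPKM in white light and 16.2, 18.7 and 21.4 FPKM in shade in hira and 7.55, 9.23 and 13 FPKM in white light and 27.4, 18.6 and 20.5 FPKM in shade in WT (difference -2.88 ± 0.21, adjusted p = 5.53e-07). The shaded libraries of the 2 genotypes were alike, and white-light hira stood well above white-light WT. AT4G27280 read 62, 65.9 and 55.4 FPKM in white light and 38.4, 42.7 and 40.9 FPKM in shade in hira and 8.06, 11.4 and 18.9 FPKM in white light and 81, 57.7 and 63.3 FPKM in shade in WT (difference -2.95 ± 0.28, adjusted p = 1.85e-05). AT3G56880 read 51.8, 53.9 and 62.7 FPKM in white light and 22.2, 23.4 and 26.8 FPKM in shade in hira and differed from WT by -1.28 ± 0.21 (adjusted p = 0.00399). MYBR1, also known as MYB44, fell in hira by 0.58 ± 0.14 and rose in WT by 0.73 ± 0.14 (difference -1.3 ± 0.2, adjusted p = 0.00174). All 5 differences were kept in each of the 12 fits without 1 library and in the fit without white-light hira 1 and 2. For AT2G22880 and AT4G07975, whose differences from WT were also among the largest called, no size is given, since groups of theirs were listed at 0, and their calls were lost in 9 and 10 of the 12 fits.

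Jasmonate genes fell in part. Against 26% of all genes that rose and 9.55% that fell, of 20 tested synthesis genes, JAZ repressors and targets, 5 fell and 1, ST2A, rose in hira (median -0.49), against 3 that rose and 1 that fell in WT (median 0.45). Of the 10 tested genes named JAZ in the annotation, 0 rose and 0 fell in hira (median 0.09, WT 0.39). In shade, 17 of the 20 listed genes were lower in hira than in WT (6.59% of all genes) and none higher (4.96%). In white light 6 were lower (9.03%) and none higher (2.61%). MYC2, the bHLH factor at the head of the pathway and not on the list, read 21.8, 23.9 and 22.8 FPKM in white light and 1.83, 5.31 and 5.82 FPKM in shade in hira and 7.57, 12.5 and 18 FPKM in white light and 17.3, 11.5 and 19.5 FPKM in shade in WT, with a change of -2.26 ± 0.32 and a difference from WT of -2.63 ± 0.45 (adjusted p = 0.00484). ORA47, a factor that activates jasmonate synthesis and also not on the list, read 9.47, 10.2 and 7.78 FPKM in white light and 2.33, 1.59 and 1.16 FPKM in shade, and its difference from WT was -1.59 ± 0.29 (adjusted p = 0.00917). AOS, the allene oxide synthase of the first committed step, read 110.0, 110.3 and 99 FPKM in white light and 45.5, 44.6 and 49.6 FPKM in shade in hira and 100.5, 100.2 and 140.4 FPKM in white light and 180.4, 151 and 183 FPKM in shade in WT. It began at nearly the same level, fell in hira and rose in WT, a difference of -1.78 ± 0.21 (adjusted p = 0.000153). These 3 differences were kept in all 12 fits without 1 library. When white-light hira 1 and 2 were left out, AOS still passed (-1.68, adjusted p = 0.00845), and MYC2 (-2.63, adjusted p = 0.0661) and ORA47 (-1.39, adjusted p = 0.151) did not. The lipoxygenase genes LOX3 and LOX4 changed by -1.02 ± 0.25 and -1.6 ± 0.33. With white-light hira 1 and 2 left out, 10 of the 20 fell and the median was -1.07.

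Of 10 tested salicylic acid and immunity genes 2 fell (9.55% of all genes) and none rose (26%): PAD4 changed by -1.25 ± 0.19 and CBP60G by -1.71 ± 0.38. Of 10 tested abscisic acid genes 2 rose (26% of all genes) and 3 fell (9.55%). RAB18 and RD29B, late response genes, changed by 1.09 ± 0.22 and 1.27 ± 0.29, and the phosphatase gene ABI1 by -0.95 ± 0.12. CYP707A3, which breaks the hormone down, read 6.39, 7.7 and 5.1 FPKM in white light and 2.52, 2.21 and 3.03 FPKM in shade in hira and 0.72, 1.22 and 2.16 FPKM in white light and 2.4, 2.48 and 3.35 FPKM in shade in WT. It fell in hira and rose in WT (difference -1.73 ± 0.28, adjusted p = 0.00338), a call kept in all 12 fits without 1 library and lost without white-light hira 1 and 2 (-1.47, adjusted p = 0.0866). NCED3, which makes the hormone's precursor, did not change in hira (5.99, 6.25 and 2.55 FPKM against 4.5, 4.18 and 5.01 FPKM) and rose in WT (1.27 ± 0.21). That difference of -1.29 ± 0.3 (adjusted p = 0.0353) was lost in 10 of the 12. Of 11 tested flavonoid genes 3 fell in hira (9.55% of all genes) and 6 in WT (11.4%). Of 10 tested dark starvation genes 3 rose and 1 fell, close to the shares of all genes tested (26% and 9.55%). DIN10, induced by sugar depletion, read 57.2, 65.1 and 109 FPKM in white light and 453, 555 and 550.2 FPKM in shade (change 2.79 ± 0.21), and ASN1, an asparagine synthetase, changed by 2.54 ± 0.3.

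Heat shock and other chaperone genes rose in part. Of 9 tested heat shock genes 4 rose, 5 did not pass and none fell (median 0.98), against none in WT (median 0.3) and 5 in asf1ab. BIP2, the HSP70 chaperone of the endoplasmic reticulum, read 50.9, 35.4 and 58.3 FPKM in white light and 191, 189.9 and 178 FPKM in shade in hira and 47.6, 49.2 and 82.4 FPKM in white light and 79.7, 72.4 and 80.4 FPKM in shade in WT. White-light libraries of the genotypes overlapped and shaded hira stood above all others, with a change of 1.96 ± 0.19 and a difference from WT of 1.54 ± 0.27 (adjusted p = 0.00637). UTR3, a nucleotide sugar transporter, showed the same, with 11.3, 7.12 and 15.3 FPKM in white light and 50.3, 52.4 and 49 FPKM in shade (difference 1.56 ± 0.3, adjusted p = 0.0137). AT5G61590, annotated as the wax regulator DEWAX, read 10.9, 11.7 and 29.3 FPKM in white light and 73.7, 67 and 68.8 FPKM in shade in hira and 61.9, 51.5 and 56.8 FPKM in white light and 80.0, 81.6 and 69.2 FPKM in shade in WT. Its difference of 1.66 ± 0.31 (adjusted p = 0.0108) lay in white light, where all 3 hira libraries were below WT and hira 1 and 2 were lowest. These 3 differences were kept in all 12 fits without 1 library and lost without white-light hira 1 and 2, at 1.25 (adjusted p = 0.105) for BIP2, 1.09 (adjusted p = 0.175) for UTR3 and 0.79 (adjusted p = 0.0605) for AT5G61590. The cytosolic HSP70-1 changed by 0.83 ± 0.12. HSP90.1 and HSFA2, the latter a heat shock factor, were called as rises of 2.08 ± 0.5 and 1.68 ± 0.49, but their levels in white-light hira 3 (62.2 and 11.2 FPKM) were near or within the shaded range. The call of HSFA2 was lost without white-light hira 1 (change 1.25) and without white-light hira 2 (change 1.2), and with both left out HSP90.1 changed by 0.41 and HSFA2 by -0.15. Without white-light hira 1 and 2, the list kept 2 rises and its median was -0.29, and without white-light hira 3 it had 7 rises.

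The falls of photosynthesis genes in hira moved with white-light hira 1 and 2. Of 20 nuclear photosystem, antenna and Rubisco genes 7 fell and none rose (median -0.36), against 3 that rose and 1 that fell in WT (median 0.31). LHCB1.1, a light-harvesting antenna protein of photosystem II, read 7166, 7609 and 3786 FPKM in white light and 2627, 2658 and 2972 FPKM in shade in hira and 3175, 3325 and 3431 FPKM in white light and 4635, 5028 and 4197 FPKM in shade in WT. White-light hira 1 and 2 stood far above hira 3, which was closer to the shaded libraries than to its companions. LHCB1.2 read 3028, 3472 and 1523 FPKM in white-light hira and 1353, 1277 and 1267 FPKM in shade. The differences from WT were -1.58 ± 0.34 and -1.7 ± 0.35 (adjusted p = 0.0261 and 0.0206), lost in 8 and 6 of the 12 fits without 1 library. LHCB1 genes are near-identical copies. The count of 7 became 2 without white-light hira 1, 2 without white-light hira 2, 14 without white-light hira 3, and 2, 3 and 4 without shaded hira 1, 2 and 3. Without white-light hira 1 and 2 it was 0 and the median -0.01.

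**Figure D3:**
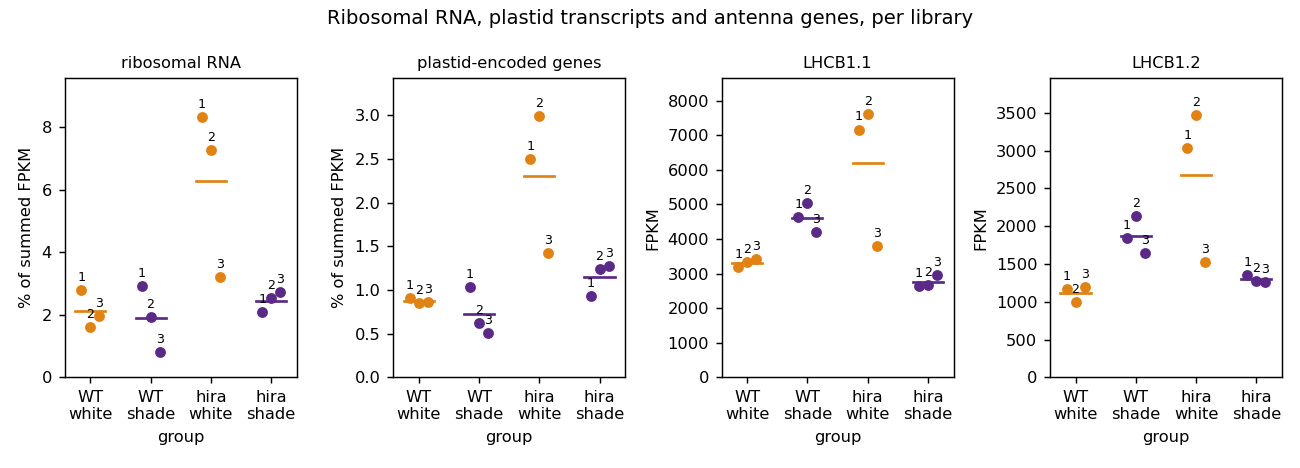
From left to right, the percent of summed FPKM taken by ribosomal RNA and by plastid-encoded genes, and the FPKM of LHCB1.1 and LHCB1.2. Each point is a library of WT or hira in white light or shade, numbered by replicate, and lines are means. White-light hira 1 and 2 are the highest points in every measure, and white-light hira 3 lies nearer to the shaded libraries.

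Plastid-encoded transcripts followed the same libraries. Of 75 tested plastid genes 30 fell and none rose in hira (median -0.93), 24 were higher in white-light hira than in white-light WT, and none was called as different from WT in shade. Without white-light hira 1 and 2 none of the 75 fell (median -0.43). Leaving out white-light hira 1 or 2 alone gave 19 and 6, and leaving out shaded hira 1 or 3 gave 13 and 19. The part of ribosomal RNA content or RNA quality in these falls was not tested. Of 28 mitochondrial genes 1 rose. Chlorophyll synthesis was steadier: 5 of 11 tested genes fell and 1 rose. HEMA1, which starts the pathway, read 289, 294 and 323 FPKM in white light and 182, 198 and 179 FPKM in shade (change -0.69 ± 0.09), and CHLH, a magnesium chelatase subunit, changed by -0.69 ± 0.11. Both also fell without white-light hira 1 and 2 (adjusted p = 0.000172 and 0.00933), and these were the 2 that did.

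Of 16 clock genes 3 rose and 7 fell in hira (median -0.28), against 26% and 9.55% of all genes tested. In WT 1 rose and 3 fell (14.9% and 11.4% of all genes). The morning genes CCA1, RVE8 and LNK1 changed by -0.74 ± 0.15, -0.66 ± 0.1 and -0.72 ± 0.17. PRR9 read 13.7, 24.4 and 19.1 FPKM in white light and 6.73, 7.58 and 5.75 FPKM in shade and changed by -1.35 ± 0.24. LUX of the evening complex changed by 0.93 ± 0.14. ELF4, its partner, did not change in hira (50.7, 47.3 and 50.7 FPKM against 48.2, 61.2 and 46.8 FPKM) and fell in WT (-0.83 ± 0.14). The difference of 0.89 ± 0.19 (adjusted p = 0.0276) was lost in 7 of the 12 fits without 1 library. The count of 7 falls became 4 without white-light hira 2, without shaded hira 1 and without shaded hira 2.

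Genes of histone supply moved little. Of 11 H3-H4 chaperone genes 2 rose and none fell, or 1 rose and 2 fell after rescaling. Over all genes tested 26% rose and 9.55% fell, or 14.4% and 14.6% after rescaling. UBN1, the partner of HIRA, read 10.2, 12.8 and 12 FPKM in white light and 14.8, 16.4 and 15 FPKM in shade (change 0.38 ± 0.09, adjusted p = 0.00262), and MSI1, a subunit of several chromatin complexes, changed by 0.38 ± 0.09, a call that rescaling ended (adjusted p = 0.0766). UBN2, CABIN1, ASF1A and ASF1B had changes between -0.13 and 0.12 that did not pass. Among the 9 H3 genes, HTR8, which encodes H3.3, rose from 176, 153 and 167 FPKM to 221, 219 and 208 FPKM (change 0.38 ± 0.07). HTR5, also an H3.3 gene, read 306, 296 and 306 FPKM in white light and 374, 390.3 and 356 FPKM in shade (change 0.3 ± 0.07), which did not pass after rescaling (adjusted p = 0.247). HTR4, the third H3.3 gene listed, changed by -0.2 ± 0.09 (adjusted p = 0.0695). HTR12, the centromeric H3, and HTR13 were called as falls (-0.67 ± 0.22 and -0.62 ± 0.19). Neither fall was kept without white-light hira 1, without white-light hira 2 or without shaded hira 2, and without shaded hira 3 the list had 1 fall. After rescaling the H3 list had 1 rise and 3 falls, with HTR4 among the falls (adjusted p = 0.00907). None of the H3 or chaperone genes had a called difference from WT in its shade change.

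Of 11 genes that write or read H4K16 acetylation or handle the H2A.Z variant, 7 rose in hira (median 0.23, the same as the WT median of 0.23) and 2 rose after rescaling. ARP6, a subunit of the complex that deposits H2A.Z, changed by 0.51 ± 0.08 and the acetyltransferase HAM2 by 0.4 ± 0.08, and these 2 also rose after rescaling. The count of 7 became 4 without white-light hira 1, 3 without shaded hira 1 and 4 without shaded hira 2. Of 12 DNA replication genes 3 fell, 0 without white-light hira 1 or shaded hira 2, 1 without shaded hira 3, 6 without white-light hira 2 and 8 after rescaling. Of 13 mitosis genes 1 fell, AUR2 at -0.61 ± 0.16, 5 fell after rescaling and 6 fell without white-light hira 3.

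The summed root markers overlapped between the lights, and those of the shoot meristem nearly met. The sums of the stomatal and seed maturation markers were higher in all 3 shaded libraries. The summed FPKM of the root markers was 51.4 to 58.5 in white-light hira and 46.6 to 58.8 in shaded hira. It was 76.18 to 91.32 and 64.55 to 76.07 for the shoot meristem markers, and 1 of the 6 tested genes had its libraries apart. The 2 called falls, AS1 and AS2, were lost in 2 and 4 of the 6 fits without 1 hira library. WUS, CLV3, CUC1 and CUC2 were too low to test. Stomatal markers summed to 61.9 to 69.1 and 77.2 to 83.6, carried by KAT1, a guard cell potassium channel, which read 5.04, 4.48 and 4.65 FPKM in white light and 22.9, 19 and 19.5 FPKM in shade (change 1.91 ± 0.12, WT 1.89 ± 0.12). Seed maturation markers summed to 14.9 to 29.4 and 33 to 59.9. EM6, a late embryogenesis protein, was their only called rise, at 1.36 ± 0.39 (adjusted p = 0.0103), lost without shaded hira 2 (change 1.14, adjusted p = 0.0556). Of these 4 lists, 1 of 7 root, 0 of 6 meristem, 2 of 8 stomatal and 1 of 11 seed genes rose, and 1, 2, 1 and 0 fell. Over all genes tested 26% rose and 9.55% fell. The part of cell type proportions in the results above was not tested.

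**Figure D4:**
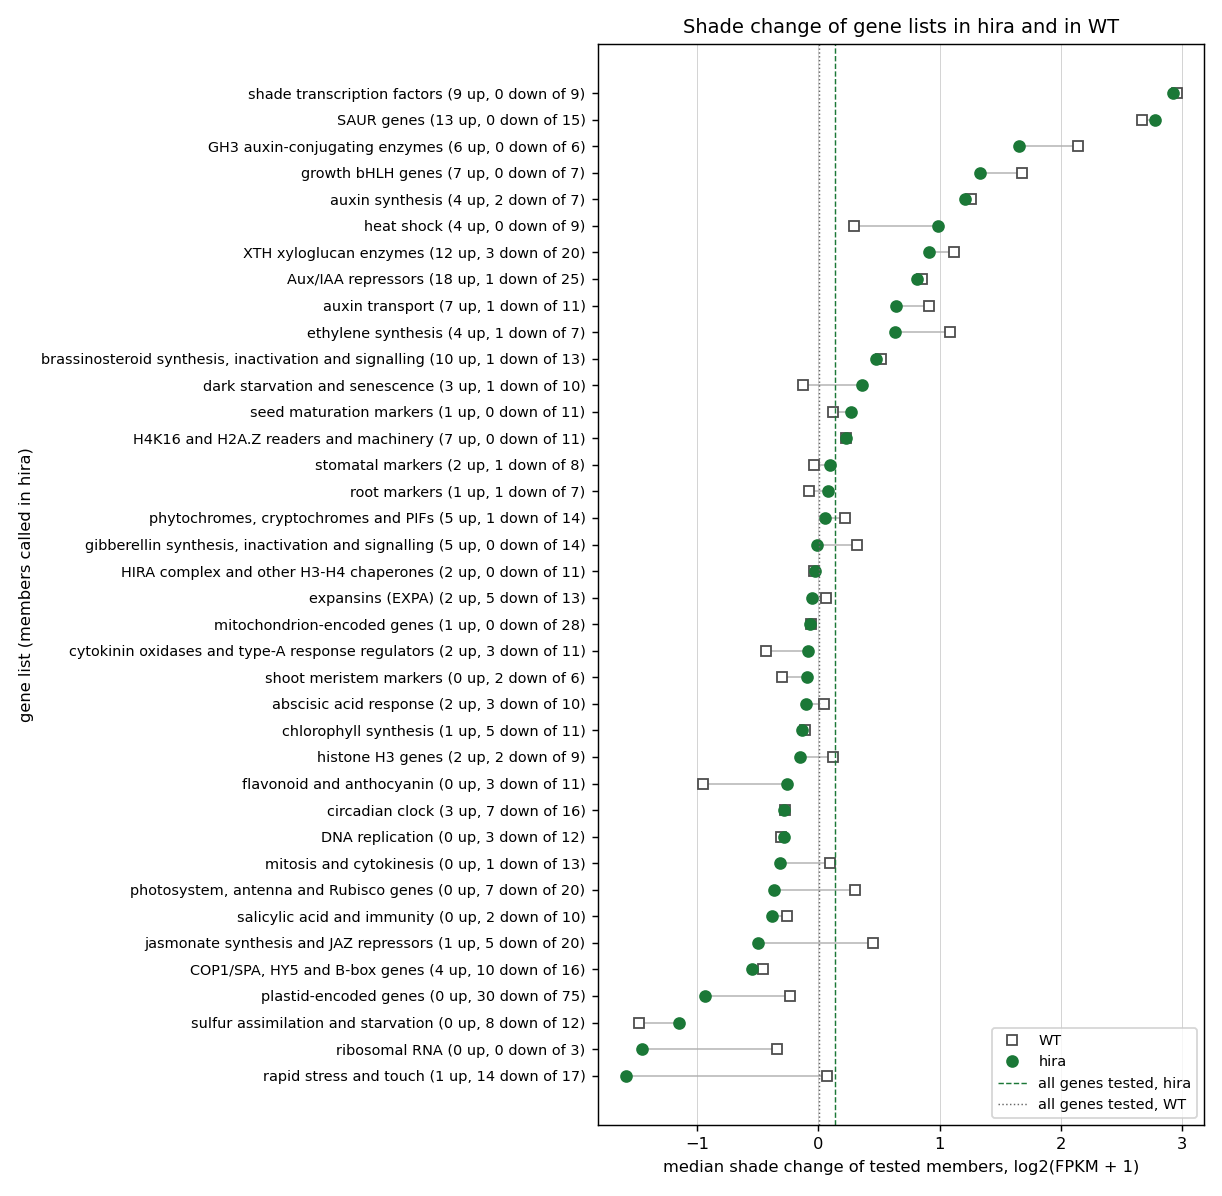
Median log2 shade change of each gene list in hira (filled) and WT (open), in order of the hira median, with vertical lines at the medians of all genes tested in hira (dashed) and WT (dotted). The counts beside each name are members that rose and fell in hira of those tested. SAUR, shade transcription factor, GH3 and growth bHLH genes lie far to the right in both genotypes and sulfur genes to the left in both. Rapid stress genes lie to the left in hira and not in WT. Their median in asf1ab, which is not drawn, was -0.44.

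Over all genes, few shade changes were called as different between hira and WT, which does not show that the others were alike. The change was higher in hira for 116 genes and lower for 131, with 3537 genes at an unadjusted p below 0.05. The count depended on single libraries. Of genes higher in hira, 59, 51 and 155 were left without white-light WT 1, 2 and 3, and 29, 52 and 50 without shaded WT 1, 2 and 3. Without white-light hira 1, 2 and 3 there were 31, 22 and 1393, and without shaded hira 1, 2 and 3 there were 21, 28 and 44. Of genes lower in hira, the counts were 79, 74 and 201 without white-light WT 1, 2 and 3, 67, 106 and 72 without shaded WT, 93, 69 and 379 without white-light hira, and 67, 78 and 75 without shaded hira. Rescaling gave 51 higher (0.267%) and 207 lower (1.08%). Leaving out white-light hira 1 and 2 gave 6 higher (0.0314%) and 60 lower (0.314%). Of the 16 differences of named genes from WT that were kept in all 12 fits without 1 library, 8 were also kept without these 2 libraries.

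Still fewer differences were called between hira and asf1ab, the double mutant of the chaperone that feeds HIRA. The change was higher in hira for 8 genes and lower for 5, with 2221 genes at an unadjusted limma p below 0.05. Leaving out 1 library gave 0 to 125 higher and 0 to 34 lower, the highest counts being without white-light hira 3. ATSPS4F, a sucrose-phosphate synthase, fell less in hira (change -1.42 ± 0.14) than in asf1ab (-2.63 ± 0.14), with 71.2, 74.5 and 99.8 FPKM in white light and 29.3, 27.2 and 32.7 FPKM in shade in hira. EXPA1, an alpha-expansin, read 325, 299 and 259.6 FPKM in white light and 224, 208 and 238 FPKM in shade in hira and 381, 380.1 and 344 FPKM in white light and 144, 147 and 107 FPKM in shade in asf1ab, a difference of 1.09 ± 0.16 (adjusted p = 0.0213) lost in 4 of 12 fits without 1 library. ORA47 and MYBR1 were lower in the shade change of hira than in that of asf1ab, by -1.98 and -1.08, calls lost in 5 and 11 of the 12. Genes chosen by their change in asf1ab, whose libraries are shared with neither hira nor WT, had similar medians in those 2 genotypes. The 609 genes that rose in asf1ab by at least 1 log2 unit had a median change of 1.29 in hira and 1.18 in WT, or 1.16 in both after rescaling, and the 509 that fell had medians of -1.01 and -0.98 (-1.16 and -1 after rescaling). In hira, 558 of the 609 rose and 415 of the 509 fell.

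**Figure D5:**
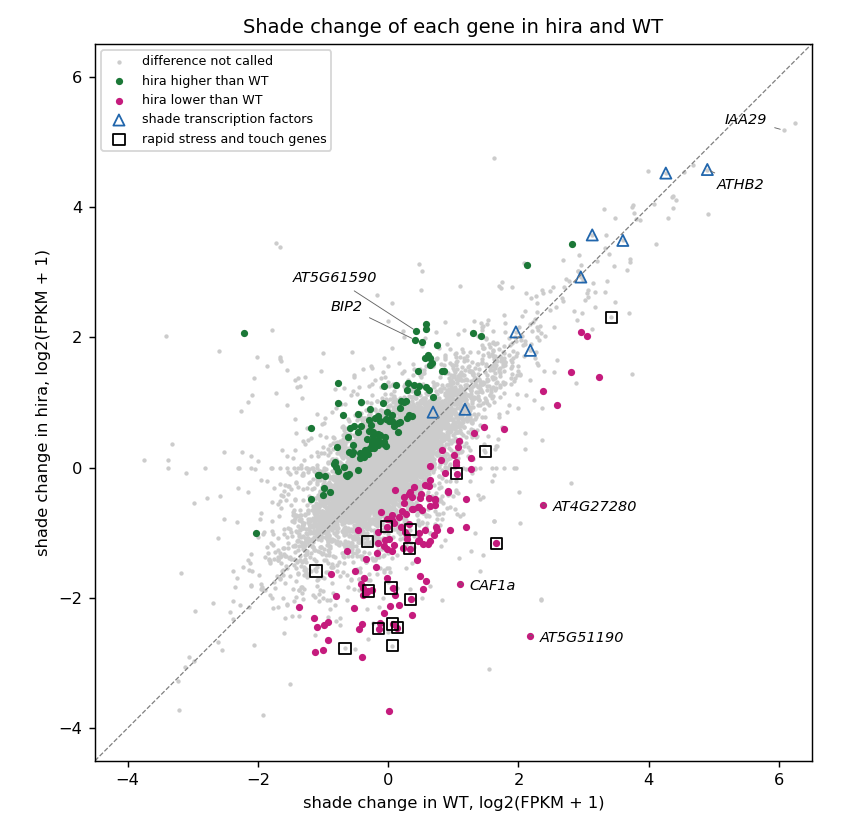
Shade change in hira (vertical axis) against shade change in WT (horizontal axis), both in log2 units, for the 19126 genes tested, with genes called higher in hira in green and lower in magenta. Triangles mark the shade transcription factors, which lie along the diagonal, and squares mark the 17 rapid stress and touch genes, most of which lie below it.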

How the data were processed

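RNA was measured in whole Arabidopsis seedlings, and the 6 hira libraries were analysed with the 18 others in the fit so that all 8 groups shared one estimate of spread. The authors deposited FPKM values with 2 decimals for 33020 loci in 24 libraries, in 1 table. Per the submitters' processing notes, FastQC, cutadapt, STAR and HTSeq were used with the TAIR10 build; those notes give no version, annotation, strand setting or step from counts to FPKM. The table includes 187 assembled loci with MSTRG names, and 6045 loci are 0 throughout. No per-sample column was left unmapped. Gene names and types came from the TAIR10.1 annotation, which matched 32548 loci. Its exon coordinates were used only for the exon lengths behind the rough depth.

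Tests ran on log2(FPKM + 1) of 19126 genes, those averaging 1 FPKM or more, with limma 3.58.1 in R 4.3.3 (8 group means, variance trend, Benjamini-Hochberg adjustment over all genes tested, calls below 0.05). Shade was compared with white light within hira, WT and asf1ab, that change was compared between hira and WT or asf1ab, and hira was compared with WT within a light. Errors of changes are standard errors of the contrast. Because the libraries of a group are not said to be separate cultures, p-values measure only the spread between these samples, which may be technical. FPKM carries no counts, and depth was read only roughly from the steps of low values: 39.7 to 44.5% of those values came within 0.15 of a whole number of reads, so no counting intervals are given. In data simulated with independent noise per gene, the shade contrast in hira recovered 54% of 50 genes changed by 0.5 log2 unit. It recovered 88% of 50 genes changed by 1. All changed genes were raised and none was drawn from the weakly expressed genes, so these rates do not describe falls or weak genes. Far fewer genes were changed than were called in the data. Shifts of whole libraries and differences between genotypes in the shade change were not simulated, so the simulation does not bear on them.

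Libraries, contrasts and the 38 gene lists were chosen with earlier results of these data known. Named genes are HIRA and its partners, ASF1A, ASF1B, HTR4, HTR5, HTR8 and PIF7; the top 16 risers and 12 fallers in hira whose libraries separate and whose higher mean reaches 2 FPKM; the 8 largest called differences each way from WT and 4 each way from asf1ab, with at least 1 group mean of 2 FPKM (organelle and ribosomal RNA loci left out of both); the shade transcription factors; and, from each remaining list, the 5 strongest called changes (2 uncalled ones if there are none) plus at most 3 called differences from WT. Alternatives were rescaling by the median of ratios or to nuclear loci, quantile normalization, pseudocounts of 0.1 and 5, a mean of at least 5 FPKM, no filter, no variance trend, the replicate number as a block, only the groups compared, each library left out, and a change of at least 1 log2 unit. Leaving out white-light hira 1 and 2 was planned, and the same with rescaling was added after seeing the data. Figures were drawn with Python 3.11.15. Promoter sequence was not used here.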

Additional observations from a re-analysis of the deposited data

Results flagged for a closer look

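Each gene here had a shade change in hira that differed from that in WT or asf1ab, by a test of the difference itself (the interaction contrast in limma, adjusted p below 0.05 over 19126 genes). Values are the difference of 2 log2 changes, hira minus the other genotype.

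Among genes lower in hira than in WT, the stress and touch group and its like gave AT5G51190 (-4.75), AT4G27280 (-2.95), CAF1a (-2.88), CBF2 (-2.82), ERF5 (-2.6), ERF6 (-2.47) and ZAT10 (-2.33). The jasmonate genes MYC2, AOS and ORA47 gave -2.63, -1.78 and -1.59, and the abscisic acid genes CYP707A3 and NCED3 gave -1.73 and -1.29. MYBR1 and AT3G56880 gave -1.3 and -1.28. Except for ZAT10 and NCED3, these 14 differences were kept in all 12 fits without 1 library of hira or WT. AT5G19240 (-2.5) read 61.9, 71.1 and 66 FPKM in white light and 7.96, 7.57 and 8.26 FPKM in shade in hira and 20.4, 29.5 and 67.2 FPKM in white light and 27.4, 22.5 and 27.5 FPKM in shade in WT, and its call was lost in 9 of the 12. BBX30 (-1.81), IPMI1 (-1.71), LHCB1.2 (-1.7) and LHCB1.1 (-1.58) were lost in 9, 6, 6 and 8. IAA30 (-1.33), GH3.5 (-1.03), PIF4 (-0.92) and ACS11 (-0.88) were lost in 10, 9, 10 and 9.

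Among genes higher in hira than in WT, AT5G61590 (1.66), UTR3 (1.56), BIP2 (1.54) and ARR4 (1.1) were kept in all 12 fits. AT5G53895 (2.07) read 5.23, 6.64 and 5.79 FPKM in white light and 15.9, 17.3 and 14.7 FPKM in shade in hira and 3.44, 1.92 and 2.13 FPKM in white light and 1.19, 0.89 and 0.99 FPKM in shade in WT, with no overlap between the genotypes in shade, and was lost in 8. AT4G34950 (1.79), FIB (1.76), a plastid lipid-associated protein, and AT1G72416 (1.62) were lost in 9, 10 and 9. FIB read 73.1, 59.4 and 177 FPKM in white-light hira, where hira 3 matched the shaded libraries at 173, 204 and 176 FPKM. ELF4 (0.89), BEE1 (0.61) and XTH28 (0.52) were lost in 7, 11 and 8.

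In the fit without white-light hira 1 and 2, the differences from WT of AT5G51190, AT4G27280, CAF1a, CBF2, ERF5, AOS, AT3G56880 and MYBR1 still passed, as did those of EXPA1 and AT2G23120 from asf1ab, and the calls of all other differences given here were lost. With only the 4 groups compared in the fit, 10 of the 16 differences from WT that were kept in all 12 fits also passed, and ERF6, MYC2, CYP707A3, AT5G61590, UTR3 and BIP2 did not.

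Against asf1ab, ATSPS4F (1.21), EXPA1 (1.09), PRA1.F1 (1.04) and MFDX1 (0.83) were higher in hira and ORA47 (-1.98), AT3G56880 (-1.2), MYBR1 (-1.08) and AT2G23120 (-0.89) lower. Their calls were lost in 9, 4, 9, 9, 5, 11, 11 and 10 of the 12 fits without 1 library of hira or asf1ab. PRA1.F1, a prenylated RAB acceptor, rose in hira from 3.2, 3.3 and 3 FPKM to 6.43, 6.06 and 6.17 FPKM and went from 3.5, 2.93 and 2.26 FPKM to 2.41, 2.78 and 1.67 FPKM in asf1ab.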

How the results depend on the processing

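The main limits are scaling, white-light hira 1 and 2, and 3 libraries a group whose independence is not stated. The choice of scaling moved the count of genes that rose in hira from 4980 to 2747 (median of ratios) and 2938 (quantile normalization), and the count that fell from 1827 to 2791 (median of ratios). Without white-light hira 1 and 2 there were 2495 rises, and 1685 with rescaling as well, and the remaining white-light library was then assumed to vary like the other groups. At least 1 log2 unit of change left 602 rises and 413 falls. Leaving out 1 library gave 3858 to 5289 rises and 1476 to 1806 falls.

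For the difference from WT (116 higher, 131 lower), rescaling gave 51 higher and 207 lower, quantile normalization 71 higher, only the groups compared 17 higher and 39 lower, and without white-light hira 1 and 2 there were 6 higher and 60 lower, or 4 higher with rescaling. At least 1 log2 unit left 29 higher. Leaving out 1 library gave 21 to 1393 higher and 67 to 379 lower. For the difference from asf1ab (8 higher, 5 lower), the counts higher and lower were 2 and 13 after rescaling, 1 and 1 with nuclear scaling, 3 and 12 with quantile normalization, 22 and 17 with a pseudocount of 5, 4 and 1 without a filter, 3 and 1 without the variance trend, 1 and 3 with only the groups compared, 2 and 10 without white-light hira 1 and 2, 60 lower with rescaling as well, and 3 and 3 at 1 log2 unit or more. Leaving out 1 library gave 0 to 125 and 0 to 34. With genes chosen anew under each alternative, so not the fixed 509 above, the median in hira of genes that fell in asf1ab was -1.1 after rescaling, -1.12 with quantile normalization, -1.06 with only the groups compared, -1.07 without white-light hira 1 and 2 and -1.12 with rescaling as well. Leaving out 1 library gave -1.06 to -0.96 for that median and 1.26 to 1.33 for the genes that rose in asf1ab.

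The replicate numbers were not shown to pair the libraries: deviations of same-numbered hira libraries correlated at 0.140, 0.00863 and 0.0401. Shaded hira 1 and 3 correlated best with the white-light library of the same number, and shaded hira 2 with white-light hira 3 (0.119). Over all pairs of groups, 25 of 84 same-numbered pairs were above 0.1, in a range of -0.15 to 0.31. With the replicate number as a block, 5023 genes rose and 1946 fell in hira, 99 and 140 differed from WT, and 2 and 2 from asf1ab.

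The changes that turned sign were FIB (-0.051 with rescaling and white-light hira 1 and 2 left out), LHCB2.2 (0.0079 with those 2 left out), HSFA2 (-0.15 with those 2 left out, -0.24 with rescaling as well) and NCED3 (0.65 with those 2 left out). Over the named genes and alternatives, 3346 changes in hira kept direction and call, 272 lost the call, 11 gained it and 5 turned. Of the differences from WT or asf1ab 656 were kept and 391 lost; without white-light hira 1 and 2, 10 were kept and 34 lost, and with only the groups compared 13 and 31. List counts moved by over 1.5 times in 185 cases and stayed within that in 1183, with 18 of the moves after rescaling and 25 without white-light hira 1 and 2. The causes were not tested.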

Other observations

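Families named alike in the annotation, with at least 10 tested members, were ordered by their median shade change in hira, so the families below were chosen after their values were seen and carry no test. The lowest median was that of the ERF family, ethylene response factors that include ERF5 and ERF6: of 18 tested members 10 fell and 3 rose, with a median of -0.86 in hira and 0.16 in WT, and 6 had a lower shade change in hira than in WT. The GSTU glutathione transferases followed, with 4 of 21 that fell, none that rose, and medians of -0.52 in hira and -0.46 in WT. The ABCC transporters had 2 falls of 12 (median -0.38, WT -0.61), and the CRK receptor kinases had 5 falls and 3 rises of 22 (median -0.31, WT -0.25).

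At the other end, below the SAUR, XTH and IAA genes already described, stood the AGP arabinogalactan proteins of the cell surface, of which 13 of 23 rose and 1 fell (median 0.58, WT 0.53). Of the GAUT galacturonosyltransferases, which build pectin, 9 of 11 rose and none fell (median 0.50, WT 0.15), and 2 had a higher shade change in hira than in WT. After rescaling by the median of ratios, the medians of ERF, AGP and GAUT genes in hira were -1.01, 0.43 and 0.35.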
